A study of Mus musculus with 28 samples.

Results

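The genes described here are 30 markers of infiltrating leukocytes, taken by symbol from a table of 40021 genes that gives the RNA of microglia sorted from 28 mouse retinas. They comprise 10 genes of neutrophils, 6 of monocytes, 5 of T cells, 2 of B cells, 4 of natural killer (NK) and cytotoxic cells and 3 of dendritic cells, and all 30 were found in the table. Their symbols were listed without a threshold on the measured values, but with earlier results of these data known. They address how much leukocyte RNA the sorted cells carried during endotoxin-induced uveitis (EIU). In this model lipopolysaccharide (LPS), from the outer wall of bacteria, is injected into the vitreous and draws blood leukocytes into the eye for a short time.

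Cells were sorted by fluorescence from single retinas of heterozygous Cx3cr1CreER:R26-tdTomato mice. In this line, a tamoxifen-inducible Cre recombinase under the control of the fractalkine receptor gene Cx3cr1 switches on the red protein tdTomato, and all groups carried the reporter and had received tamoxifen. Monocytes and some other blood cells also use Cx3cr1, so the reporter is not by itself confined to microglia. The authors gave tamoxifen topically to the eye, weeks before the injection. By flow cytometry they reported that cells high in tdTomato at 18 h were specific for microglia under this regime. They saw no significant difference in the number of these cells between naïve and 18 h retinas. Those are counts of cells, unlike the RNA values here. The groups were naïve retinas that received no injection (n = 10) and retinas taken 4 h (n = 6), 18 h (n = 5) and 2 weeks (n = 7) after 10 ng LPS. A group injected with vehicle alone was not analysed here, so LPS and the injection itself cannot be told apart. Retinas came from 2 experiments, of which experiment 2 held 1 of the 5 retinas at 18 h, and from left and right eyes. The labels name neither the mouse behind each eye nor its age, so 2 retinas may share an animal and p-values measure the spread between retinas.

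Leukocyte classes are told apart by the genes they use. Neutrophils carry the calcium-binding proteins S100A8 and S100A9 and a store of granule proteins. Inflammatory monocytes carry the surface protein Ly6C and the chemokine receptor CCR2. T cells carry the CD3 complex and the T cell receptor chains, B cells carry CD79 and CD20, and NK cells and cytotoxic T cells share granzymes and the granule protein NKG7. Dendritic cells carry the growth factor receptor FLT3 and, once activated, the chemokine receptor CCR7, which guides them to lymph nodes. Microglia, the resident macrophages of the retina, normally lack most of these genes.

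At 18 h, the cytotoxic gene Nkg7 was found in all 5 retinas and Gzma and Gzmb in 3 of them, and all of them were listed at 0 in every naïve and every 4 h retina. The stretches around the start sites of these 3 genes are shown because they made up most of the mean summed leukocyte level at 18 h. Each runs from 250 bases before the start site to 50 after it in RefSeq (GRCm38.p6), 5′ to 3′ on the strand of the gene. The windows lie at chr7:43436888-43437187 (plus strand) for Nkg7, chr13:113100932-113101231 (minus strand) for Gzma and chr14:56262285-56262584 (minus strand) for Gzmb. Capitals mark matches on either strand to the T-box core TCACACC or to the STAT-type site TTCNNNGAA, in which N is any base.
Nkg7: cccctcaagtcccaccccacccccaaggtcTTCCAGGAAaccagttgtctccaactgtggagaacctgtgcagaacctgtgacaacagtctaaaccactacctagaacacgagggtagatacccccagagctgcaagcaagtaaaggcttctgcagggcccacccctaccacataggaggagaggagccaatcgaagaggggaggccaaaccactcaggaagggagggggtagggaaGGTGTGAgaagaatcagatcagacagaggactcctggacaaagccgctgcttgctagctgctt
Gzma: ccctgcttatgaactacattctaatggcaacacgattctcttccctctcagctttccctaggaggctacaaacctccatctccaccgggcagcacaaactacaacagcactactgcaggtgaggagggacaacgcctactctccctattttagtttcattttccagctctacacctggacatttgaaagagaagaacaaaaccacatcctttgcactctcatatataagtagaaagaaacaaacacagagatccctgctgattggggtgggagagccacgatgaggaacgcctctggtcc
Gzmb: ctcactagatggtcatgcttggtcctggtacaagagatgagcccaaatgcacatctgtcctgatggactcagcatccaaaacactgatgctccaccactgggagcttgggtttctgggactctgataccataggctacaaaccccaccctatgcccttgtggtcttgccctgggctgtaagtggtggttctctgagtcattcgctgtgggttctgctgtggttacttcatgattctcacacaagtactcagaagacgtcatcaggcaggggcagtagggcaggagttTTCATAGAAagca

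The Nkg7 window held 1 T-box match, at base 238 of the window, and 1 STAT-type match, at base 31. The Gzmb window held 1 STAT-type match, at base 288, and the Gzma window held neither. Of 32851 mouse windows of this length, 3.98% held the T-box letters and 8.3% the STAT-type letters. The NF-kappa B letters GGANTTTCC, present in 1.25% of all windows, were in none of these 3. Of the 30 members, 24 had a window in the RefSeq table, with 28 windows between them, of which 2 held the T-box letters, 3 the STAT-type letters and 1 the NF-kappa B letters. The windows rest on RefSeq starts, and those of GENCODE differ. The GENCODE start of Gzmb, at base 56262260 of chromosome 14, lies downstream of the whole window, and that of Nkg7, at base 43437073 of chromosome 7, lies inside it and before the T-box match. Which matches come before a start site thus depends on the annotation, and they describe letters only.

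Values are RPKM, read numbers scaled to transcript length and to library depth, as the authors deposited them, so levels can be compared between genes of different length. The number of alignments ranged from 7510000 to 19700000 per retina, and at these depths 1 read on the longest transcript of S100a8 was worth between 0.102 and 0.267 RPKM, and on Nkg7 between 0.0576 and 0.151. Values below these levels rest on less than 1 read, since the authors' estimation can divide a read between genes. RNA came from few cells per retina and was amplified, so a gene listed at 0 may have been missed. In 4 retinas (naïve retinas 3 and 4, 18 h retina 4 and 2-week retina 1) fewer than 7500 genes reached an RPKM of 1. The 15 microglial markers were present in all groups, with a summed level between 8280 and 22400 RPKM in naïve retinas, and rod photoreceptor markers, which microglia should lack, were also high, with a summed level between 1990 and 7830 RPKM.

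Most members were near 0 in naïve retinas and were found more often at 18 h. In naïve retinas 16 of the 30 were listed at 0 in every retina and 4 reached an RPKM of 1 in at least 1 retina. At 4 h these numbers were 13 and 4, at 18 h they were 4 and 16, and at 2 weeks 8 and 6. The number of members at an RPKM of at least 1 lay between 0 and 3 in each naïve, 4 h and 2-week retina. It was 6, 12, 7, 4 and 6 in the 18 h retinas 1 to 5. At this limit the 18 h retinas thus did not overlap with any of the others. Retina 4 set the narrow gap, and it overlapped at other limits. It held 4 members at an RPKM of at least 0.1 and 6 above 0, against 1 to 6 and 3 to 10 in naïve retinas. Over all genes, the number at an RPKM of at least 1 was 6969 to 10220 at 18 h and 6552 to 11825 in naïve retinas.

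**Figure D1:**
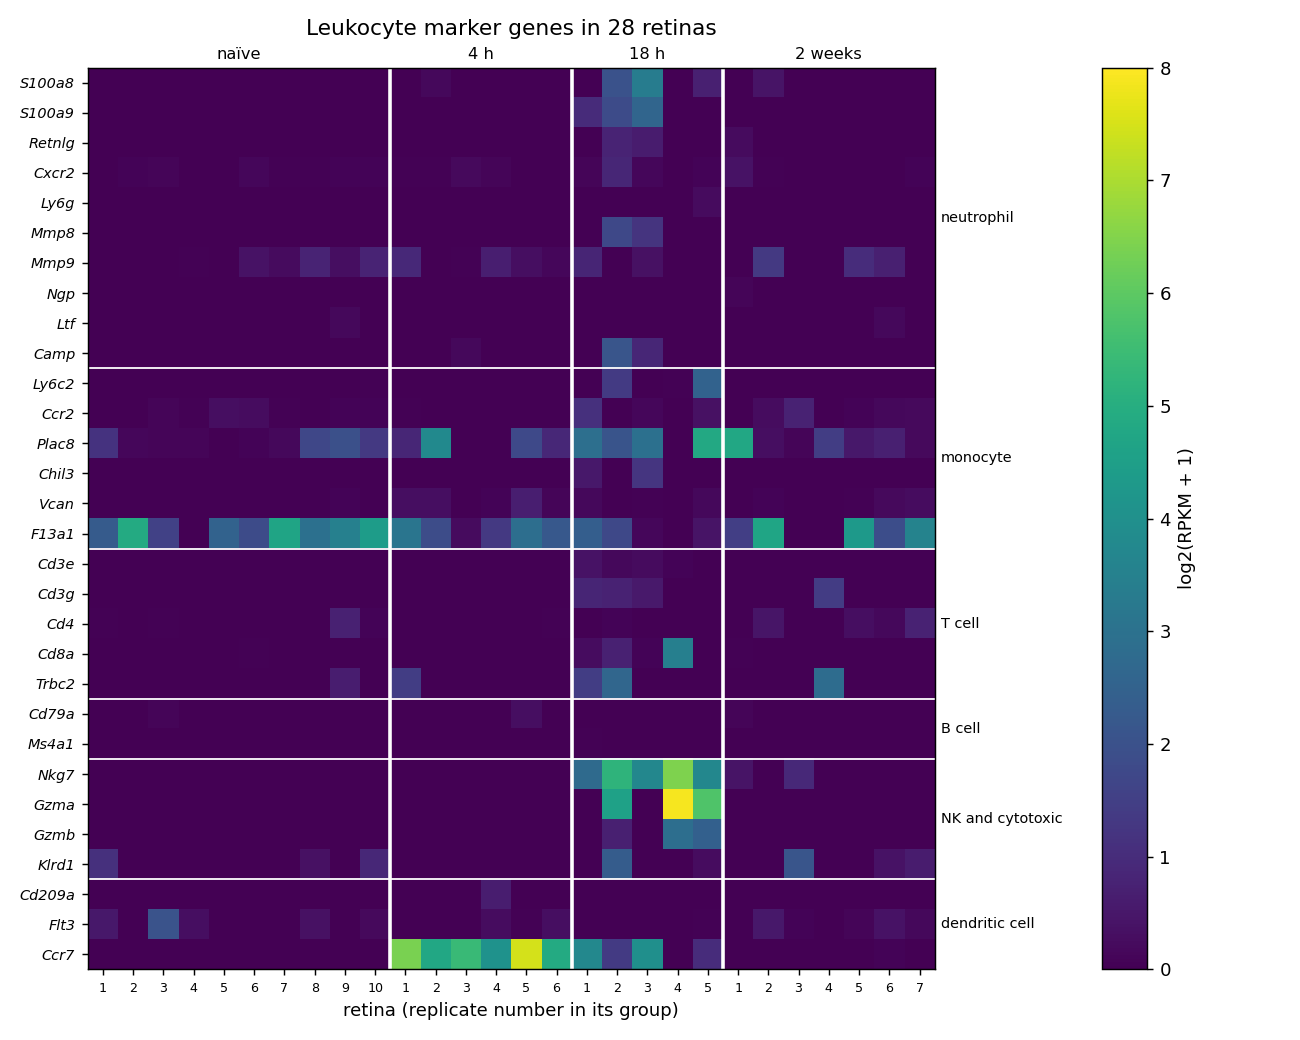
Level of each of the 30 members (rows, grouped by leukocyte class) in each of the 28 retinas (columns, grouped by time and numbered within the group), as log2(RPKM + 1) on a colour scale from 0 to 8. Ccr7 stands out at 4 h, Nkg7, Gzma and Gzmb at 18 h, and F13a1 and Plac8 are the members with values in most naïve retinas.

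The summed level of the 30 members was 12.3 ± 10.2 RPKM in naïve retinas (SD, n = 10), 70.3 ± 63.9 at 4 h (SD, n = 6), 125.0 ± 124 at 18 h (SD, n = 5) and 15.9 ± 10.4 at 2 weeks (SD, n = 7). These sums were 0.00331%, 0.0162%, 0.0259% and 0.00423% of all RPKM in the groups, in that order. The 18 h mean was 71.5 RPKM without retina 4. Different genes made up the sum at each time. At 4 h the dendritic cell class gave 62.9 of the 70.3 RPKM, nearly all of it Ccr7. Its other members, Flt3 and Cd209a, did not exceed 0.236 and 0.573 RPKM then, so the class sum there is in effect that of Ccr7. Which cells carried Ccr7 was not tested. At 18 h the NK and cytotoxic class gave 96.6 RPKM, the monocyte class 12.2, the neutrophil class 6.58, the dendritic cell class 5.9, the T cell class 4.11 and the B cell class 0.00839. Without retina 4, which held 331 RPKM of it, the NK and cytotoxic class gave 38.1 RPKM, and the T cell class 2.63. The former was not the largest class in retina 1, with 5.77 RPKM against 12.6 of the monocyte class, or in retina 3, with 11.9 against 17.4 of the neutrophil class. In naïve retinas and at 2 weeks the monocyte class gave the most, with 11.3 and 13 RPKM. Without Ccr7, F13a1 and Plac8, a set of 3 chosen after their values were seen, the sum lay between 0.0516 and 7.79 RPKM in all naïve, 4 h and 2-week retinas, and was 12.4, 84.3, 31.5, 341 and 77.5 RPKM in the 18 h retinas 1 to 5.

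**Figure D2:**
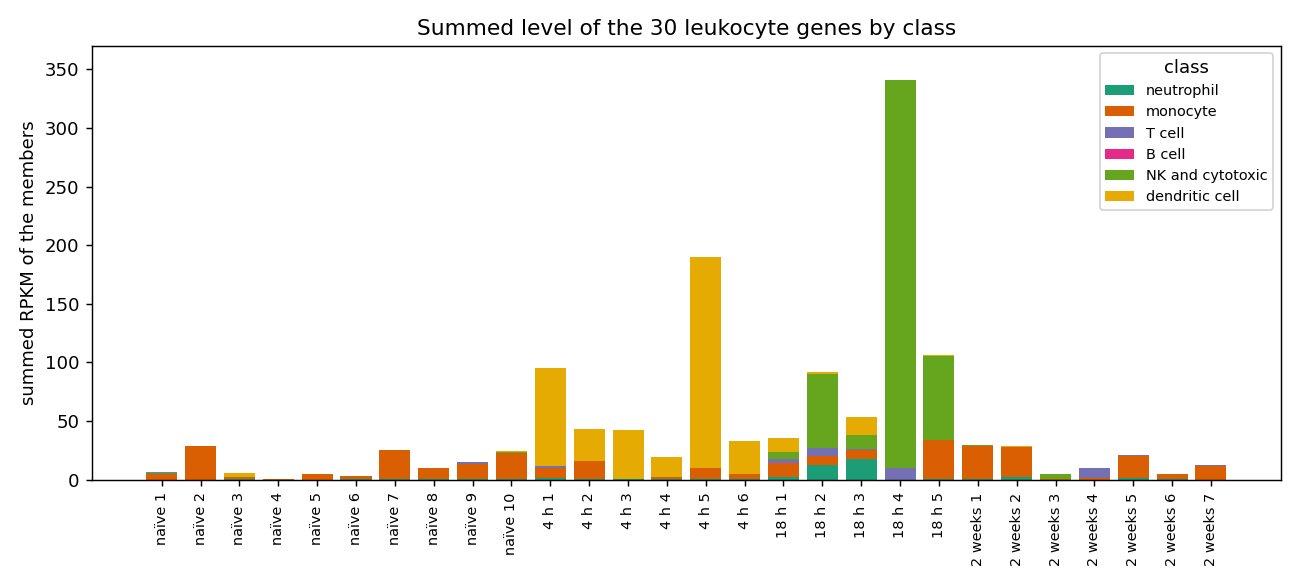
Summed RPKM of the 30 members in each retina (bars), split by leukocyte class (colours). The dendritic cell class, nearly all of it Ccr7, makes up most of the bar in the 4 h retinas, and the NK and cytotoxic class reaches 331 RPKM in 18 h retina 4.

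The highest sum, 341 RPKM in 18 h retina 4, was also the retina with the lowest summed microglial markers of all 28, at 2320 RPKM, and with the fewest genes detected at 18 h, 6969. In bulk RNA, fewer cells of a type and less RNA per cell cannot be told apart. At 18 h, 8 of the 15 microglial markers were lower than in naïve retinas and none was higher, and at 4 h 6 were lower (limma, adjusted p of at most 0.05 and at least a 2-fold change). Of all genes tested, 4.69% were called in either direction at 18 h and 8.08% at 4 h. The summed microglial markers ranged from 4410 to 15700 RPKM at 4 h, from 2320 to 15700 at 18 h and from 10400 to 24500 at 2 weeks. The part of this shift in the leukocyte values was not tested.

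**Figure D3:**
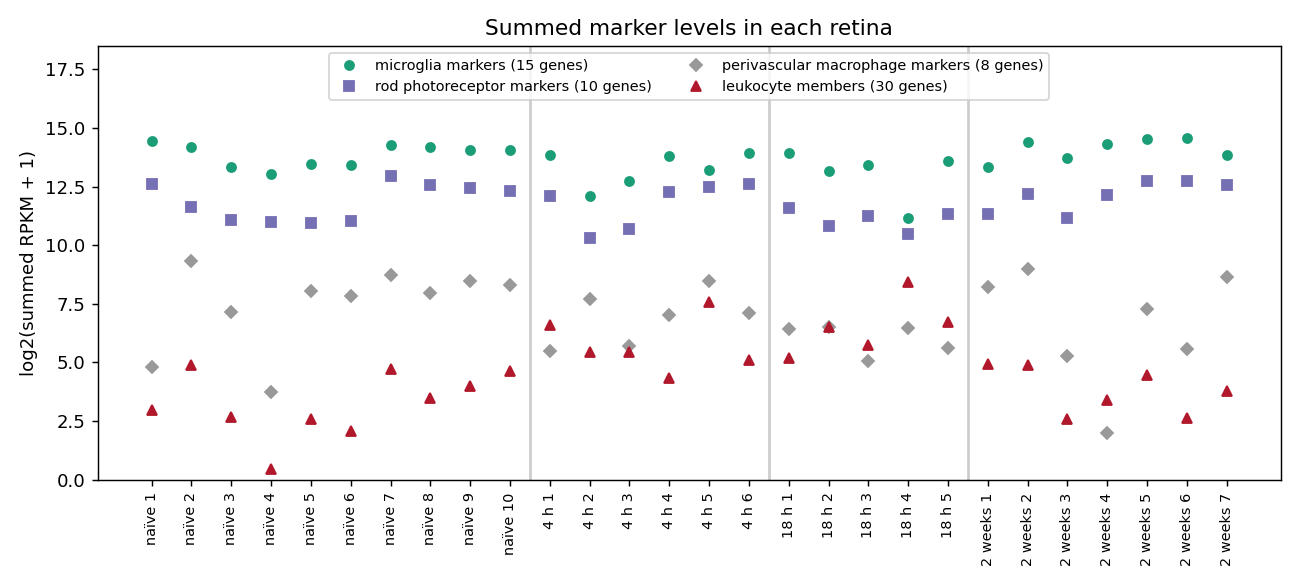
Summed level of 4 marker lists in each retina, as log2(summed RPKM + 1): microglia, rod photoreceptors, perivascular macrophages and the 30 leukocyte members. The leukocyte sum stays below the microglial and the rod sums in all 28 retinas, and comes closest to both in 18 h retina 4.

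Differences were tested on log2(RPKM + 1) with limma, over the 13164 genes that reached an RPKM of 1 in 5 or more retinas. Only 4 of the 30 members passed this filter, Ccr7, F13a1, Nkg7 and Plac8. Nkg7 passed it only through the 18 h retinas and Ccr7 only through the 4 h and 18 h retinas, so their passing already depends on a difference between groups. Against naïve retinas, 1 of these 4 was called at 4 h (Ccr7, higher), where 8.08% of all genes tested were called. At 18 h 2 were called (Ccr7 and Nkg7, both higher), against 4.69% of genes, and at 2 weeks none was, against 0.0076%. Between 18 h and 4 h 2 were called (Nkg7 higher and Ccr7 lower at 18 h), against 5.42%. Without the 4 retinas with few genes detected, an alternative chosen after the data were seen, the counts were 1 at 4 h, 3 at 18 h, 0 at 2 weeks and 3 between 18 h and 4 h, with Plac8 as the added gene. With 4 members, these counts cannot be read against shares of genes. At 2 weeks 0 members also had an unadjusted p under 0.05 by limma, among the 4 and among all 30 when no filter was used.

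When all 40021 genes were tested with no filter, the background was 2.1% at 4 h, 1.21% at 18 h, 0.0025% at 2 weeks and 1.3% between 18 h and 4 h. Of the 30 members, 1 was then called at 4 h (Ccr7) and 5 at 18 h (Ccr7, Gzma, Gzmb, Nkg7 and S100a9), all higher. Between 18 h and 4 h 4 were called (Gzma, Nkg7 and S100a9 higher and Ccr7 lower at 18 h), and none at 2 weeks. By complete separation, 1 member (Ccr7) was higher in every 4 h retina than in every naïve retina, as were 0.572% of all genes, and 1 member (Nkg7) was higher in every 18 h retina, as were 0.705%. No member was lower in this sense at either time.

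Ccr7 was the member with the highest mean RPKM over the 28 retinas and the one that was higher at 4 h. The gene lies at chr11:99144196-99155077 on the minus strand (GRCm38). It was listed at 0 in all 10 naïve retinas. At 4 h its level was 83.8, 27.1, 41.6, 15.9, 180.0 and 28.4 RPKM in retinas 1 to 6. Every 4 h retina was thus above every naïve retina, and the highest stood more than 2 times above the next. At 18 h Ccr7 was at 12.2, 1.57, 14.7, 0 and 1.03 RPKM in retinas 1 to 5. All 18 h retinas were below all 4 h retinas, and 1 of them, retina 4, was at 0 like the naïve retinas. At 2 weeks it was at 0 in 6 retinas and at 0.0518 RPKM in the seventh.

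The fitted log2 difference of Ccr7 from naïve retinas was 5.51 at 4 h (SE 0.46, limma adjusted p = 2.46e-10) and 2.01 at 18 h (SE 0.49, limma adjusted p = 0.0109). Since naïve retinas were listed at 0, these sizes depend on the pseudocount and no fold change is given. The fall from 4 h to 18 h was tested directly and gave −3.50 (SE 0.54, limma adjusted p = 5.31e-05). The 4 h call was present in experiment 1 (27.1 to 83.8 RPKM) and in experiment 2 (15.9 to 180 RPKM), and the difference between the experiments in this change was −0.06 (SE 0.96, limma adjusted p = 1). The 18 h call rested on retinas 1 and 3, both of experiment 1. Without retina 1 the adjusted p was 0.0801 and without retina 3 it was 0.0827 (limma). None of the 4 members tested had a 4 h change that differed between the experiments, and none had an unadjusted p under 0.05 for it (limma), against 0.0988% of genes called.

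The other 2 dendritic cell members were low at 4 h. Flt3, the receptor for a growth factor of dendritic cell precursors, had a median of 0.0821 RPKM in naïve retinas, a lowest value of 0 and a highest of 3.14, in naïve retina 3. It did not exceed 0.236 RPKM at 4 h or 0.043 at 18 h, and its fitted log2 difference at 18 h was −0.33 (SE 0.22, limma with no filter, adjusted p = 0.8). Cd209a, a lectin of monocyte-derived dendritic cells, was above 0 in 1 of 28 retinas, at 0.573 RPKM in 4 h retina 4. Of 10 further dendritic cell genes listed, 3 passed the filter and none was called at 4 h or 18 h, where 8.08% and 4.69% of all genes tested were called. Batf3, a transcription factor of cross-presenting dendritic cells, was at 11.9 ± 2.89 RPKM at 4 h (SD, n = 6) and 17.4 ± 5.69 in naïve retinas (SD, n = 10). Fscn1, an actin-bundling protein of mature dendritic cells, was at 48.9 ± 88.6 RPKM at 4 h (SD, n = 6), where 1 retina reached 230 and the median was 13.1. In naïve retinas its median was 3.4 RPKM, 1 retina was at 96.2 and the next highest at 6.98, while the lowest 4 h value was 9.64. Its log2 fold change at 4 h was 1.87 (SE 0.65), with a limma unadjusted p of 0.00689 and adjusted p of 0.069. Zbtb46, a transcription factor of classical dendritic cells that did not pass the filter and was named after its values were seen, was at 4.17, 0.153, 0.23, 0.903, 6.84 and 3.11 RPKM at 4 h and at most 0.841 in naïve retinas. Like Ccr7 it was highest in 4 h retina 5 and next highest in retina 1, but in retinas 2 and 3 it was within the naïve range.

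Nkg7 was the member that was higher at 18 h in every retina. The gene, at chr7:43437073-43438249 on the plus strand, encodes a membrane protein of the granules of NK cells and cytotoxic T cells, and its window is printed above. It was listed at 0 in all 10 naïve retinas and all 6 retinas at 4 h. At 18 h its level was 5.77, 35.5, 11.9, 86.4 and 12.1 RPKM in retinas 1 to 5. At 2 weeks it was at 0 in 5 retinas and at 0.332 and 0.907 RPKM in retinas 1 and 3. The 18 h retinas therefore did not overlap with any other group, and they differed among themselves, from 5.77 to 86.4 RPKM. The fitted log2 difference was 4.36 from naïve retinas (SE 0.34, limma adjusted p = 2.02e-10) and 4.36 from 4 h retinas (SE 0.38, limma adjusted p = 1.74e-09). The call held without each single retina, with a highest adjusted p of 2.84e-09 for the comparison with naïve retinas. These fits kept the genes that had passed the filter with all retinas included. Nkg7 reached an RPKM of 1 only in the 5 retinas at 18 h. Without any 1 of them it would miss a filter applied again, so these fits do not test its passing. At 2 weeks the difference was 0.19 (SE 0.31, limma adjusted p = 1).

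Granzymes A and B were found in 3 of the 5 retinas at 18 h. Gzma encodes granzyme A, a serine protease that cytotoxic cells release into their targets. It was at 0, 23.0, 0, 238.0 and 54.7 RPKM in the 18 h retinas 1 to 5 and at 0 in all 23 other retinas. Gzmb, which encodes granzyme B, was at 0, 0.618, 0, 6.44 and 4.5 RPKM in the same retinas and also at 0 in the 23 others. Both were listed at 0 in retinas 1 and 3, which had lower Nkg7 than retinas 2 and 4, though retina 5 had Gzma with an Nkg7 level close to that of retina 3. Neither gene passed the filter. With no filter, the fitted log2 differences at 18 h were 3.66 for Gzma (SE 0.78, limma adjusted p = 0.0112) and 1.21 for Gzmb (SE 0.30, limma adjusted p = 0.0393).

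These granzyme calls rested on few retinas. The adjusted p of Gzma was 0.0568 without 18 h retina 5, and that of Gzmb was 0.131 without retina 4 and 0.189 without retina 5 (limma, no filter). Without the 4 retinas with few genes detected, it was 0.0645 for Gzma and 0.19 for Gzmb. Klrd1, which encodes the NK receptor CD94, followed another pattern. It was at 4.02 RPKM in 18 h retina 2 and 0.207 in retina 5 and at 0 in the other 3, and it was also found in 3 naïve retinas, up to 1.15 RPKM, and in 3 retinas at 2 weeks, up to 3.33 RPKM.

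**Figure D4:**
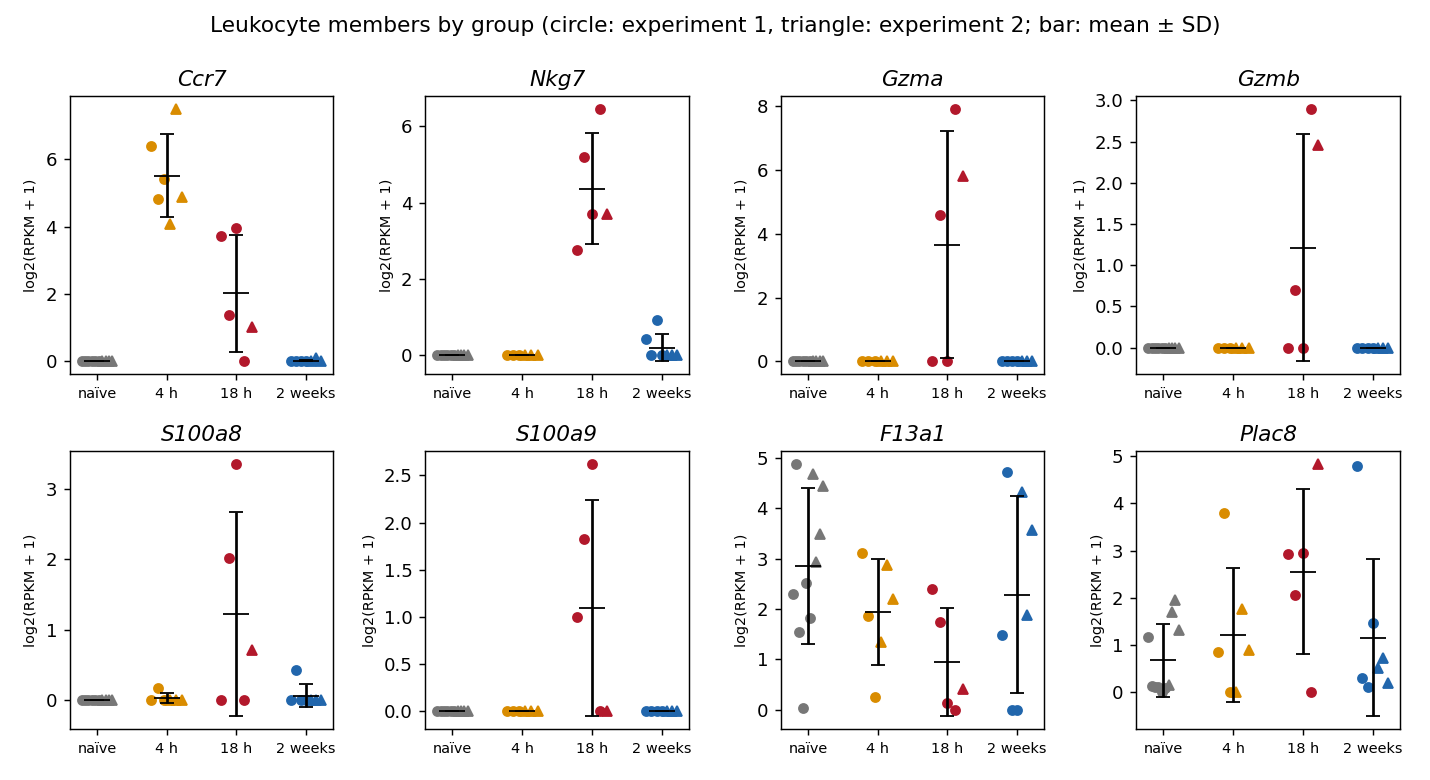
Level of Ccr7, Nkg7, Gzma, Gzmb, S100a8, S100a9, F13a1 and Plac8 in each retina, as log2(RPKM + 1) by group (circles experiment 1, triangles experiment 2, bars mean ± SD). Nkg7 lies above 0 in all 5 retinas at 18 h, Gzma in 3 of them, and Ccr7 in all 6 retinas at 4 h and 4 of 5 at 18 h.

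Among 10 further genes of NK and cytotoxic cells, Ccl5 was the only gene to pass the filter. It encodes a chemokine that T cells, NK cells and activated macrophages all make. Its level rose from 23.8 ± 17.2 RPKM in naïve retinas (SD, n = 10) to 1490 ± 1160 at 4 h (SD, n = 6) and 4320 ± 1930 at 18 h (SD, n = 5), with log2 fold changes of 5.88 (SE 0.48, limma adjusted p = 1.72e-10) and 7.64 (SE 0.51, limma adjusted p = 4.06e-12). At 4 h Ccl5 was thus high while Nkg7, Gzma, Gzmb and Klrd1 were all at 0. Klrb1c, which encodes the NK receptor NK1.1, was at 0.0523, 0.812, 18.4 and 2.38 RPKM in the 18 h retinas 1, 2, 4 and 5 and at or near 0 in retina 3. Retina 4 thus had the highest Nkg7, Gzma, Gzmb and Klrb1c of the 5, but not of other genes of the list, named after their values were seen. Ncr1, which encodes the NK receptor NKp46, was at 0.518 and 2.82 RPKM in retinas 2 and 5 and at 0 in the other 3. Klre1, another NK receptor gene, was highest in retina 5, at 0.684 RPKM, and Prf1, which encodes the pore-forming perforin, in retina 2, at 0.687, against 0.0252 and 0.0341 in retina 4. Gzmk, which encodes granzyme K, was at 2.37 RPKM in 18 h retina 1 and at 0 in the 27 others.

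Of the 10 neutrophil members, none passed the filter and none reached an RPKM of 1 in a naïve or 4 h retina. S100a8 and S100a9 lie next to each other on chromosome 3, at chr3:90668978-90670035 on the plus strand and chr3:90692632-90695721 on the minus strand, and encode the 2 subunits of calprotectin, the most abundant protein of the neutrophil cytosol. S100a8 was at 0, 3.07, 9.24, 0 and 0.638 RPKM in the 18 h retinas 1 to 5 and at 0 in all 10 naïve retinas. It was otherwise above 0 in 1 retina at 4 h, at 0.125 RPKM, and in 1 retina at 2 weeks, at 0.342. S100a9 was at 0.994, 2.55, 5.15, 0 and 0 RPKM in the 18 h retinas and at 0 in the other 23. Both were highest in retina 3 and next highest in retina 2, and neither was found in retina 4.

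With no filter, the fitted log2 difference at 18 h was 1.09 for S100a9 (SE 0.25, limma adjusted p = 0.0225) and 1.22 for S100a8 (SE 0.32, limma adjusted p = 0.0599). S100a9 was no longer called without retina 2 (adjusted p = 0.118) or without retina 3 (adjusted p = 0.0663, both limma with no filter). Granule genes were in the same 2 retinas. Camp, which encodes the antimicrobial peptide cathelicidin, was at 3.28 RPKM in retina 2 and 0.818 in retina 3. Mmp8, which encodes neutrophil collagenase, was at 2.3 and 1.32 RPKM there, and Retnlg, a resistin-like gene of neutrophils, at 0.729 and 0.51. These 3 genes were at 0 in the other 18 h retinas. Cxcr2, the receptor for neutrophil chemokines, reached 0.815 RPKM in retina 2.

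Other genes that define neutrophils stayed near 0. Ly6g, the surface marker by which mouse neutrophils are recognised, was at or near 0 in 27 retinas and at 0.189 RPKM in 18 h retina 5, and reads of Ly6g can be shared with its near copies Ly6c1 and Ly6c2. Ngp was above 0 in 1 retina, at 0.0827 RPKM, and Ltf, which encodes lactoferrin, in 2 retinas, at 0.137 and 0.119 RPKM, none of them taken at 18 h. Mmp9, which encodes gelatinase B, was found in all groups without a rise at 18 h, and its highest value was 0.735 RPKM among naïve retinas, 0.904 at 4 h, 0.782 at 18 h and then 1.51 at 2 weeks.

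Some further genes on the neutrophil list behaved differently. Of 16 in the table, Mpo, Padi4, Stfa1 and BC100530 were at 0 in every 18 h retina. Cd177, Trem1 and Prtn3 did not exceed 0.031, 0.173 and 0.2 RPKM then, and Stfa2l1 was at 2.75 RPKM in retina 3 alone. None of these genes passed the filter. The other 8 passed it, and 5 of them were called higher and none lower at 18 h, where 4.69% of all genes tested were called. These were Wfdc21, Fpr1, Lcn2, Fpr2 and Clec4e. The last 4 are also used by activated macrophages, and which cells carried Wfdc21 was not tested. Wfdc21 was at 37.3, 120, 69.8, 102 and 15.1 RPKM in the 18 h retinas 1 to 5, including retina 4, which held no neutrophil member above 0. Fpr1, a receptor for bacterial peptides, was at 186, 192, 279, 90.5 and 259 RPKM in the 18 h retinas, against at most 21.9 in naïve retinas (log2 fold change 5.92, SE 0.94, limma adjusted p = 0.000106). Lcn2, which encodes the iron-binding protein lipocalin 2, was at 121, 126, 182, 2.89 and 51.8 RPKM (log2 fold change 5.54, SE 0.60, limma adjusted p = 1.48e-07). All 5 retinas were above every naïve retina for both genes, including retinas 1 and 4, in which S100a8 was at 0. At 2 weeks Fpr1 was at 131, 31.8 and 54.7 RPKM in retinas 2, 5 and 7, above all naïve retinas, and at most 7.58 in the others. It was not called then (log2 fold change 1.45, SE 0.84, limma). Csf3r, which encodes the receptor for the neutrophil growth factor G-CSF, was at 21.2 ± 22.3 RPKM in naïve retinas (SD, n = 10) and 7.87 ± 4.36 at 18 h (SD, n = 5), and this difference was not called (limma adjusted p = 0.349).

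**Figure D5:**
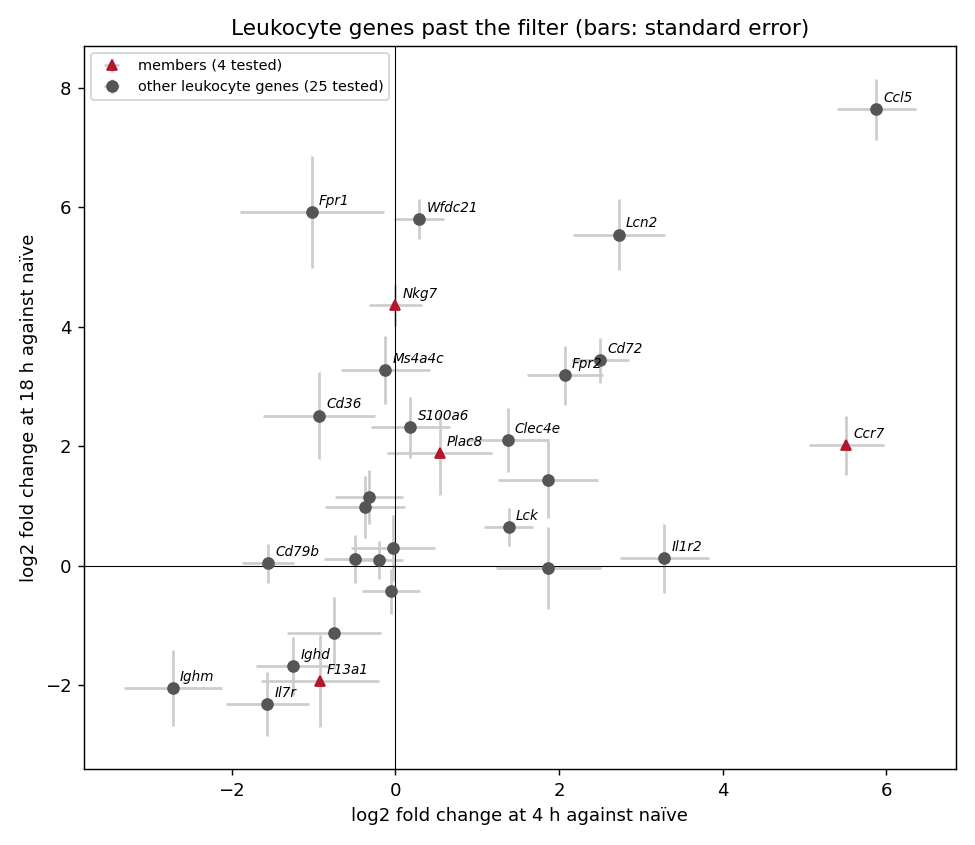
Log2 fold change against naïve retinas at 4 h (horizontal axis) and at 18 h (vertical axis) of the 4 members and 25 further leukocyte genes that passed the filter, with bars of 1 standard error. Gene names mark the members and the genes called at 4 h or 18 h, with Ccl5 at 5.88 and 7.64, Nkg7 at 0 and 4.36 and Ccr7 at 5.51 and 2.01.

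The monocyte members gave no call. F13a1, which encodes a subunit of coagulation factor XIII and is used by monocytes and by resident tissue macrophages, had a lowest, median and highest value of 0.0167, 5.69 and 28.4 RPKM in naïve retinas. These were 0.185, 3.1 and 7.66 RPKM at 4 h and 0, 2.67 and 25.3 at 2 weeks. At 18 h F13a1 was at 4.29, 2.34, 0.0921, 0 and 0.328 RPKM in retinas 1 to 5. Naïve retinas thus varied over a range that held all the 18 h values but 1, the 0 of retina 4. The log2 fold change at 18 h was −1.92 (SE 0.77, limma adjusted p = 0.162), and at 4 h it was −0.92 (SE 0.72, adjusted p = 0.515).

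F13a1 varied with the markers of perivascular macrophages, a list that also holds it. Over the 28 retinas, Pearson's r of log2(RPKM + 1) was 0.84 with Lyve1, 0.75 with Mrc1, 0.74 with Pf4 and 0.66 with Cd163, all genes of macrophages at vessels and borders. It was −0.09 with Ccr2 and −0.22 with Ly6c2, which were both low in most retinas. Within the 10 naïve retinas it was 0.80, 0.84, 0.80 and 0.73 for the first 4 and −0.31 and 0.36 for the last 2. Ly6c2 was above 0 in 1 naïve retina, at 0.0279 RPKM, and Ccr2 did not exceed 0.216 RPKM in naïve retinas. The values for Ccr2 and Ly6c2 thus rest on levels near 0 and cannot be set against the others. These points share libraries and groups, and the values are descriptions. Of the 7 perivascular markers that passed the filter, F13a1 among them, none was called at 18 h, where 4.69% of all genes tested were called. Their median log2 fold change then was −1.91. Mrc1, the mannose receptor, was at −2.58 (SE 0.81, limma adjusted p = 0.0615).

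Plac8, a small cysteine-rich protein of monocytes, neutrophils and some lymphocytes, had a lowest, median and highest value of 0, 0.108 and 2.86 RPKM in naïve retinas. At 18 h it was at 6.63, 3.18, 6.69, 0 and 27.5 RPKM, and 4 of the 5 retinas were above all naïve retinas. Single retinas were also high at 4 h, 12.8 RPKM in retina 2, and at 2 weeks, 26.6 RPKM in retina 1. The log2 fold change at 18 h was 1.88 (SE 0.69, limma adjusted p = 0.12). It was called without 18 h retina 4 (adjusted p = 0.0271), without 2-week retina 1 (adjusted p = 0.0456) and without the 4 retinas with few genes detected (adjusted p = 0.00891, all limma).

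The surface markers of inflammatory monocytes were low. Ly6c2 was at 1.57 and 4.68 RPKM in 18 h retinas 2 and 5 and did not exceed 0.0321 in the other 26, and its reads can be shared with Ly6c1. Ccr2, the receptor that brings monocytes out of the marrow, was at 1.15 RPKM in 18 h retina 1 and at most 0.701 elsewhere. Chil3, a chitinase-like secreted protein, was at 0.424 and 1.33 RPKM in 18 h retinas 1 and 3 and at or near 0 elsewhere. Vcan, which encodes the matrix proteoglycan versican, did not exceed 0.591 RPKM, a value of 4 h retina 5. Of 15 further monocyte genes, 6 passed the filter and 3 of these were higher at 18 h, Ms4a4c, Cd36 and S100a6, where 4.69% of all genes tested were called. Ms4a4c, a membrane protein of the CD20 family, had a log2 fold change of 3.28 (SE 0.57, limma adjusted p = 0.000403). Lyz2, the lysozyme of macrophages and neutrophils, was at 956 ± 786 RPKM in naïve retinas (SD, n = 10) and 1740 ± 1000 at 18 h (SD, n = 5), and was not called (limma adjusted p = 0.332).

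T cell members were found at 18 h in overlapping sets of retinas, and retina 2 held all of them above 0. Their highest values at 18 h were not all in the same retina. Trbc2, a constant segment of the T cell receptor beta chain whose reads can be shared with Trbc1, was at 1.75 and 5.24 RPKM in 18 h retinas 1 and 2 and at or near 0 in the other 3. It was also at 1.72 RPKM in 4 h retina 1, 6.09 in 2-week retina 4 and 0.548 in naïve retina 9. Trbc1 was at 2.97, 2.21 and 1.42 RPKM in 18 h retinas 2, 3 and 5, so that 4 of the 5 retinas held one or the other. Cd8a, which encodes a chain of the co-receptor of cytotoxic T cells, was at 0.19, 0.658, 0.0569, 9.95 and 0 RPKM in the 18 h retinas 1 to 5 and did not exceed 0.0291 in the others. Neither was called with no filter, with log2 differences at 18 h of 0.76 for Trbc2 (SE 0.42, limma adjusted p = 0.648) and 0.90 for Cd8a (SE 0.32, limma adjusted p = 0.258).

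Cd3e and Cd3g, which encode chains of the CD3 complex, were low in the retina with the most Cd8a. Cd3e was at 0.297, 0.13, 0.177, 0.0648 and 0 RPKM in the 18 h retinas and at 0 in the 23 others. Its log2 difference at 18 h had a limma adjusted p of 0.00212 with no filter, but at 0.18 (SE 0.03) it was far below a 2-fold change. Cd3g was at 0.767, 0.705, 0.474, 0 and 0 RPKM there, and its only other value above 0 was 1.7, in 2-week retina 4. Cd4, which some macrophages use as well, did not exceed 0.707 RPKM. Of 14 further T cell genes, 2 passed the filter. Of these Il7r, which encodes a receptor that keeps lymphocytes alive, fell at 18 h by 2.32 on the log2 scale (SE 0.54, limma adjusted p = 0.00745). It also fell at 4 h, by 1.57 (SE 0.51, limma adjusted p = 0.0488). The other, Lck, rose at 4 h by 1.39 (SE 0.30, limma adjusted p = 0.0021). At 18 h the difference of Lck was 0.65 (SE 0.32, limma adjusted p = 0.284) and was not called. Cd8b1, the partner chain of Cd8a, was at 0.117, 2.75, 1.25, 15.1 and 0 RPKM in the 18 h retinas, with its highest value in the same retina as Cd8a, and at 5.68 in 2-week retina 4, where Cd8a was at 0. Among the genes below the filter, named after their values were seen, Trac, the constant segment of the T cell receptor alpha chain, was at 4.07, 6.83, 11.3, 0.0942 and 0 RPKM in the 18 h retinas and did not exceed 0.752 elsewhere. Cd3d, a further CD3 chain, was at 0.476, 1.42 and 0.968 RPKM in the first 3 of them and at 0 in the other 2. Cd2, an adhesion molecule of T and NK cells, was above 0 in all 5, from 0.101 to 1.68 RPKM, and at 6.53 in 2-week retina 4.

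The 2 B cell members were near 0 throughout. Cd79a, which encodes a chain of the B cell receptor complex, was above 0 in 3 retinas, and its highest value was 0.237 RPKM, in 4 h retina 5. Ms4a1, which encodes CD20, did not exceed 0.0419 RPKM. Their log2 differences at 18 h were −0.01 for Cd79a (SE 0.03, limma with no filter, adjusted p = 1) and 0.01 for Ms4a1 (SE 0.01, limma with no filter, adjusted p = 0.663). Further genes on the B cell list were high in naïve retinas, among them Cd72, a surface lectin, at 29.1 ± 15.8 RPKM (SD, n = 10). Cd72 rose to 168 ± 79.8 RPKM at 4 h (SD, n = 6) and 297 ± 65.5 at 18 h (SD, n = 5), with log2 fold changes of 2.51 (SE 0.35) and 3.44 (SE 0.37) and limma adjusted p-values of 5.72e-06 and 1.7e-07. Ighm, which encodes the heavy chain of immunoglobulin M, was at 32.4 RPKM or more in all naïve retinas and fell at 4 h by 2.72 on the log2 scale (SE 0.60, limma adjusted p = 0.00242).

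Over all 25 further leukocyte genes that passed the filter, 6 were higher and 3 lower at 4 h, 10 were higher and 2 lower at 18 h, and 0 were called at 2 weeks, where 2 had an unadjusted p under 0.05 (limma). Their median log2 fold change was −0.06 at 4 h, 0.98 at 18 h and 0.21 at 2 weeks, beside −0.11, −0.08 and 0.07 over all genes tested. After all retinas were scaled to an equal RPKM total, all genes had a median of −0.28 at 4 h and −0.26 at 18 h, and the 25 genes had medians of −0.18 and 0.65.

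The 18 h retinas thus differed in which leukocyte genes they held. Retina 1 held F13a1, Plac8, Trbc2, Ccr2, Ccr7 and low Nkg7 at an RPKM of at least 1. It also held S100a9 at 0.994 and Cd3g at 0.767 RPKM, with neither Gzma nor Gzmb. Retina 2 had the most members at an RPKM of at least 1, with 12. Retina 3 had the most S100a8 and S100a9, with Ccr7, Nkg7 and Plac8 at 14.7, 11.9 and 6.69 RPKM and neither Gzma nor Gzmb. Counting any value above 0, retinas 2 and 3 held members of every class but B cells. Retina 1 held members of every class, with Ms4a1 at 0.0419 RPKM for B cells. Retina 4 had the most Nkg7, Gzma, Gzmb and Cd8a and no neutrophil member above 0. Retina 5, the only one of experiment 2, held Gzma, Nkg7, Gzmb, Plac8 and Ly6c2. By 2 weeks the highest values were those of Plac8 (26.6 RPKM in retina 1), F13a1 (25.3 in retina 2) and Trbc2 (6.09 in retina 4), and Gzma, Gzmb, S100a9, Camp and Mmp8 were listed at 0 in all 7 retinas.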

How the data were processed

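Microglia sorted from 28 retinas were profiled by the authors with a SMART-Seq v4 kit. The submitters' processing notes name bcl2fastq 2.20, STAR 2.5.3a, Partek and mm10. The authors quantified Ensembl release 89 transcripts by expectation maximisation and deposited 1 table of RPKM values, headed by a line of alignment numbers (7510000 to 19700000 per retina). Read counts per gene are not in it, so no counting intervals are given. The authors' 2 further tables of 4 h and 18 h comparisons (p-values, fold changes, F statistics) were not used.

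Tests used log2(RPKM + 1) and the 13164 of 40021 genes that reached an RPKM of 1 in 5 or more retinas, and 4 lines that shared a symbol were kept apart. All 4 groups were fitted together in limma 3.58.1 (R 4.3.3) with the variance prior following mean expression, and p-values were adjusted over all genes tested by the Benjamini-Hochberg method. Calls required an adjusted p no higher than 0.05 together with a change of 2-fold or more. The fit was tested on simulated data built from the residuals of whole retinas. Nearly all large changes put in were recovered, with the right sign, and few unchanged genes were called in most draws, but many were called at 18 h in a draw that placed retinas with few genes detected in that group. The real 18 h group also holds such a retina, retina 4, so its calls may be too many. Only genes past the filter were simulated, so the outcome does not bear on the calls made with no filter. Coordinates of genes are those of GENCODE mouse release M21. Promoter windows were read and figures drawn with Python 3.11.15.

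The members, the 79 further leukocyte genes and the marker lists were chosen with earlier results of these data known. Elane, Ctsg, Stfa2 and Cxcr1, listed among them, were not analysed here. All members are accounted for, with full values for those called and the 2 of highest mean RPKM in each class. Of the other lists, the 2 of highest mean and the gene with the largest change called at 18 h are named, and others were named after their values were seen. Alternatives were pseudocounts of 0.1 and 10, no filter or one at an RPKM of 5, experiment, eye side or replicate number as a term, fits of the compared groups or of 1 experiment, rescaled, quantile-normalised or untransformed RPKM, no variance trend, the adjusted p alone and each retina left out.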

Additional observations from a re-analysis of the deposited data

Results flagged for a closer look

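In groups of 4 to 10 retinas, the gap of the highest or lowest value to its neighbour was compared with the range of the group by Dixon's criterion. Of 34 groups of values tested, 14 had such a value. Chance flags about 1 in 20 groups of normally distributed values, a rate that does not hold for RPKM values with many at 0, and in 3 of the 14 all other retinas were at or near 0. At 18 h these were Gzma at 238 RPKM, Cd8a at 9.95 RPKM and the summed members at 341 RPKM in retina 4, Camp at 3.28 RPKM and Klrd1 at 4.02 RPKM in retina 2, Plac8 at 27.5 RPKM in retina 5 and Ccr2 at 1.15 RPKM in retina 1. At 2 weeks they were Plac8 at 26.6 RPKM in retina 1, Cd3g at 1.7 RPKM and Trbc2 at 6.09 RPKM in retina 4, and Klrd1 at 3.33 RPKM in retina 3. At 4 h they were Plac8 at 12.8 RPKM in retina 2 and Trbc2 at 1.72 RPKM in retina 1, and in naïve retinas Flt3 at 3.14 RPKM in retina 3.

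The changes of a pair of members differed between 18 h and 4 h when the difference itself was tested. That of Ccr7 was −3.50 on the log2 scale and that of Nkg7 was 4.36 (limma, 18 h minus 4 h).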

How the results depend on the processing

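The number of members called at 18 h against naïve retinas was 2, but 5 with no filter on low values. It was 1, Nkg7 alone, with a pseudocount of 10, in experiment 1 alone and on untransformed RPKM, and between 1 and 3 when each retina was left out. It was 1 without 18 h retina 1 or 3, and 3, with Plac8 added, without 18 h retina 4 or 2-week retina 1. Between 18 h and 4 h it was 2, but 4 with no filter. The 4 h call of Ccr7 and the 18 h call of Nkg7 held under every alternative that could be fitted, with limma adjusted p-values up to 0.0057 and 0.00877. Fits that left out retinas kept the genes filtered on all retinas. Applied again without an 18 h retina, the filter would drop Nkg7, so its call there depends on the filter kept. Some differences that were not called changed sign. That of Plac8 was −0.40 at 4 h and −0.81 at 2 weeks in experiment 2 alone, −0.27 at 2 weeks without the 4 retinas with few genes detected, and between −0.13 and 0.65 at 2 weeks when each retina was left out. That of Ccr7 at 2 weeks was −0.031 after quantile normalisation, and its difference between the experiments was 0.024 with a pseudocount of 10 and between −1.07 and 0.64 when each retina was left out. The cause of these shifts was not tested.

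The labels number the retinas within each group. For same-numbered retinas, the deviations from their group means were correlated over the genes past the filter. These correlations ranged from −0.33 to 0.70 over the comparisons, so the numbers were not taken as pairs. With the replicate number as a block, 1 member was called at 4 h, 2 at 18 h, 0 at 2 weeks and 2 between 18 h and 4 h, the same members as without it, and Ccr7 at 18 h had a limma adjusted p of 0.0433. Experiment 2 held 1 retina at 18 h, so the 18 h comparisons were not run in it alone. Most members lay near or below the RPKM of 1 read, so that small differences in them were not detectable at this depth.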
